A study of Mus musculus with 32 samples.

Results

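The genes described are those of the proteasome, taken as every mouse gene whose symbol on the array begins with Psma, Psmb, Psmc, Psmd, Psme, Psmf or Psmg followed by a number. The rule found 49 genes among the 18193 genes measured: 19 core genes (Psma and Psmb), 7 base genes (Psmc), 14 lid genes (Psmd), 4 activator genes (Psme), 1 inhibitor gene (Psmf1) and 4 assembly genes (Psmg). Each gene was read from its brightest probe set with a single symbol. Psmc3ip, a recombination factor, and Psme3ip1, a partner of the activator Psme3, match the pattern by symbol without being proteasome genes, so 47 genes belong to the particle, its regulators or its assembly. Psme2 and Psme2b stand only on a probe set with several symbols and were not analysed here.

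The samples were 32 arrays of striatal RNA from male mice, 12 weeks old, on a CBA and C57Bl/6 background. Wild-type mice received vehicle (7 arrays) or HSP990 (10 arrays), and R6/2 mice received vehicle (7 arrays) or HSP990 (8 arrays). HSP990 is an inhibitor of the chaperone HSP90, given by oral gavage at 12 mg/kg, with expression read after 4 h. R6/2 mice carry a transgene for an N-terminal fragment of human huntingtin with an expanded glutamine repeat, driven by the human huntingtin promoter, and develop a fast, severe form of disease, which limits them as a model of Huntington's disease. The design asks what the transgene does to striatal expression and what the drug does in each genotype.

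The proteasome is the main protease of the cytosol and nucleus and degrades proteins tagged with ubiquitin. Its 20S core is a barrel of alpha and beta rings with the active sites inside, and the 19S cap, made of a base with a ring of ATPases and a lid with a deubiquitinase, binds, unfolds and feeds in the substrate. Subunits must be made in matched amounts, and cells raise them together through the factor Nfe2l1 when degradation falls short. Neurons rely on the particle for synaptic turnover, and its activity has long been studied in Huntington's disease because expanded glutamine proteins accumulate as aggregates.

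The values are log2 signals per probe set, and a gene was called where limma's moderated test gave a Benjamini-Hochberg adjusted p under 0.05 over all 18193 genes; errors after ± are standard errors of that fit unless stated. The drug labels were checked with Hspa1b, the inducible HSP70, whose log2 level was 5.82 to 8.90 in wild-type vehicle arrays and 12.66 to 13.25 in wild-type HSP990 arrays, and was 6.94 to 9.52 and 11.99 to 12.81 in the R6/2 groups. The co-chaperone gene Dnajb1 rose by 1.74 ± 0.08 in wild type and 1.45 ± 0.08 in R6/2, and of 9 heat shock genes 9 rose in wild type and 8 in R6/2. Of 8 markers of the medium spiny neuron, the main striatal neuron, 7 were lower in R6/2 on each treatment, and their mean shift per array from the wild-type vehicle mean was -2.44 to -0.91 on vehicle. Over all genes, 9.6% were called lower in R6/2 on vehicle and 11% under HSP990. In bulk tissue, fewer cells of a type and less RNA per cell cannot be told apart. RNA quality, read as the 3′ minus 5′ signal of the Gapdh control probes, was poor in 2 arrays, R6/2 HSP990 replicate 5 at 5.01 and wild-type vehicle replicate 5 at 2.23.

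Proteasome genes stood higher in R6/2 striatum than in wild type under either treatment. On vehicle, 26 of the 49 members were higher and 1 was lower, where 11.9% of all genes tested were called higher and 9.6% lower. Under HSP990, 31 were higher and 0 lower, where 22.6% and 11% of all genes were called. By the unadjusted p under 0.05, 30 members passed on vehicle (61.2%, against 32.7% of all genes) and 35 under HSP990 (71.4%, against 41% of all genes). With the second brightest probe set in place of the brightest, for genes that have one, 17 members were called higher on vehicle and 26 under HSP990. The median difference of the members was 0.20 on vehicle against -0.01 over all genes, and 0.25 under HSP990 against 0.04 over all genes. On each treatment 45 of the 49 differences were above 0. The shifts were small: apart from Psme1 and Psmb10, no member differed by more than 0.50 log2 units upward on either treatment.

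The group means set against each other in the pair of genotype comparisons come from different arrays. Both tests take their error variance from the same fit to all groups, so the calls are not independent. In both comparisons, 23 members were called higher. These are 88.5% of the 26 called on vehicle and 74.2% of the 31 called under HSP990, while over all genes the 1769 shared calls are 81.9% and 43.0%. Psma4, Psma7 and Psmb1 passed on vehicle alone, and Psma6, Psmb2, Psmb3, Psmc2, Psmd2, Psme3ip1, Psme4 and Psmg1 under HSP990 alone. With the 3′ bias of the RNA as a covariate, 6 more members were called higher under HSP990, and 2, Psme4 and Psmg1, were lost. Among the 6 were Psma4, Psma7 and Psmb1 (adjusted p = 0.0167, 0.00366 and 0.0103). A pass on 1 treatment alone does not show a different effect, and the test of that difference passed for Psme4 among the 49, as described with the activators.

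**Figure D1:**
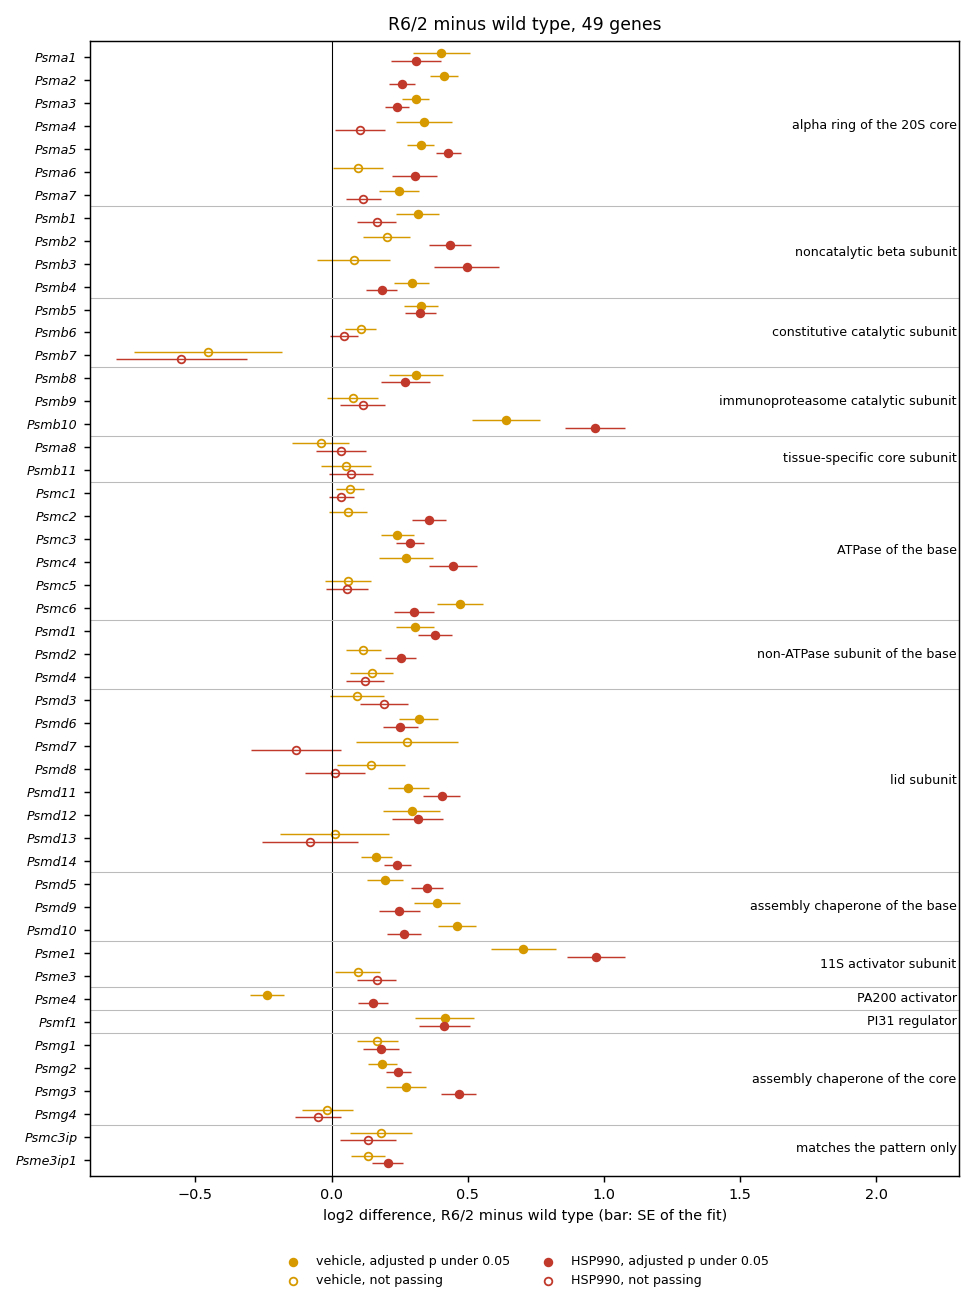
Log2 difference of R6/2 minus wild type (horizontal axis) for each of the 49 genes (rows, grouped by role), on vehicle (ochre) and under HSP990 (red), with bars for the standard error of the fit and filled points where the adjusted p is under 0.05. Points of nearly every role lie right of 0 on both treatments, Psme1 and Psmb10 lie farthest right, and Psmb7 lies left of 0 with the widest bars.

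The array means give the same picture by sample. For the 31 constitutive subunits of the 26S particle measured, the mean shift from the wild-type vehicle average had a lowest, median and highest array of -0.14, 0.01 and 0.10 in wild-type vehicle and -0.03, 0.08 and 0.12 in wild-type HSP990. It was 0.10, 0.23 and 0.27 in R6/2 vehicle and 0.17, 0.27 and 0.37 in R6/2 HSP990. Every R6/2 HSP990 array lay above every wild-type array, while on vehicle the lowest R6/2 array, at 0.10, fell just below the highest wild-type vehicle array, also 0.10 after rounding. These subunits also shifted together between arrays of 1 group: the median correlation between their deviations from the group mean was 0.18 over the 32 arrays, against 0.01 for all pairs of genes, as a description of arrays that share a library and its quality. Without both arrays of poor RNA it was 0.21.

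The alpha ring, which forms the gate of the core, was higher in R6/2 almost throughout. Of its 7 genes, 6 were higher in R6/2 on vehicle (median 0.33) and 5 under HSP990 (median 0.26). Psma2 had log2 values with a lowest, median and highest of 10.51, 10.68 and 10.76 in wild-type vehicle and 10.99, 11.09 and 11.19 in R6/2 vehicle. The groups did not overlap, and the difference was 0.41 ± 0.05 (adjusted p = 7.09e-07). Psma5 read 10.39, 10.52 and 10.61 in wild-type vehicle, 10.73, 10.84 and 10.95 in R6/2 vehicle, 10.38, 10.46 and 10.57 in wild-type HSP990 and 10.75, 10.88 and 11.05 in R6/2 HSP990. Its R6/2 arrays were all above its wild-type arrays on both treatments, by 0.33 ± 0.05 and 0.43 ± 0.04 (adjusted p = 1.25e-05 and 5.64e-09), which is 1.25-fold and 1.35-fold. Psma3 also did not overlap on either treatment, with 0.31 ± 0.05 and 0.24 ± 0.04. With the mean of its probe sets its vehicle call was lost, at 0.14 ± 0.10 (adjusted p = 0.339). Psma1 was higher by 0.40 ± 0.10 and 0.31 ± 0.09, with 1 low R6/2 vehicle array at 9.70. Psma6 was the smallest on vehicle at 0.10 ± 0.09 (adjusted p = 0.496) and passed under HSP990 at 0.30 ± 0.08. Psma4 passed on vehicle at 0.34 ± 0.10, a call lost without wild-type vehicle replicate 5 (adjusted p = 0.0575), and Psma7 at 0.25 ± 0.07.

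Across all members, 6 were without overlap and higher in R6/2 on vehicle, namely Psma2, Psma3, Psma5, Psma7, Psmb4 and Psmb5, all of them core genes, where 1.53% of all genes were so. Under HSP990 there were 9, Psma3, Psma5, Psmb10, Psmc3, Psmd1, Psmd10, Psmd14, Psme1 and Psmg3, where the share over all genes was 6.04%. In the opposite direction Psme4 alone was without overlap on vehicle (2.37% of all genes), and under HSP990 there was none (3.36% of all genes).

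The beta ring was less even. Of the 4 beta subunits that carry no active site, Psmb1 and Psmb4 were higher on vehicle (0.32 ± 0.08 and 0.29 ± 0.06), and Psmb2, Psmb3 and Psmb4 under HSP990 (0.44 ± 0.08, 0.50 ± 0.12 and 0.18 ± 0.06). Of the 3 constitutive catalytic subunits, Psmb5, which carries the chymotrypsin-like site and is the target of proteasome inhibitor drugs, was higher on both treatments. Its log2 values were 10.23, 10.48 and 10.64 in wild-type vehicle and 10.66, 10.72 and 10.88 in R6/2 vehicle, without overlap, and 10.31, 10.41 and 10.52 and 10.48, 10.75 and 10.88 in the HSP990 groups, where the lowest R6/2 array fell among the wild-type arrays. The differences were 0.33 ± 0.06 (adjusted p = 0.000276) and 0.33 ± 0.06 (adjusted p = 2.57e-05). Psmb6, with the caspase-like site, differed by 0.11 ± 0.06 and 0.04 ± 0.05 and passed on neither treatment.

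Psmb7, with the trypsin-like site, lay on the other side of 0 from the other constitutive core genes and had the widest spread of the 49. It read 8.05, 9.26 and 9.63 in wild-type vehicle, 8.22, 8.44 and 9.33 in R6/2 vehicle, 9.60, 9.79 and 10.03 in wild-type HSP990 and 7.80, 9.35 and 10.26 in R6/2 HSP990. The wild-type HSP990 arrays were tight and the R6/2 HSP990 arrays were spread over more than 2 log2 units, so that all groups overlapped except wild-type HSP990 and R6/2 vehicle. The R6/2 difference was -0.45 ± 0.27 on vehicle and -0.55 ± 0.24 under HSP990 (adjusted p = 0.257 and 0.0795), and averaged over both treatments it was -0.50 ± 0.18 (adjusted p = 0.0274). In that averaged comparison Psmb7 was the 1 member lower in R6/2, beside 34 higher, where 14.6% and 24.3% of all genes were called. Without wild-type vehicle replicate 2 its adjusted p was 0.0517, and without both arrays of poor RNA it was 0.0764, in a range of 0.0125 to 0.0764 over 10 alternative settings.

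The inducible catalytic subunits Psmb8, Psmb9 and Psmb10 replace Psmb5, Psmb6 and Psmb7 in the immunoproteasome, a form that makes peptides for antigen display and is induced by interferon. Psmb10 was among the largest differences of the family: 8.01, 8.27 and 8.69 in wild-type vehicle, 8.41, 8.90 and 9.58 in R6/2 vehicle, 7.60, 7.90 and 8.17 in wild-type HSP990 and 8.71, 8.82 and 9.23 in R6/2 HSP990. The vehicle groups overlapped at their edges and the HSP990 groups did not. The difference was 0.64 ± 0.13 on vehicle, 1.56-fold (adjusted p = 0.000297), and 0.97 ± 0.11 under HSP990, 1.95-fold (adjusted p = 3.48e-08). Psmb8 was higher by 0.31 ± 0.10 and 0.27 ± 0.09 (adjusted p = 0.0252 and 0.0177), with overlapping groups of 5.91 to 6.56 and 6.45 to 6.88 on vehicle. Its vehicle call was lost without R6/2 vehicle replicate 2 or 4 or wild-type vehicle replicate 1 or 4 (adjusted p = 0.0542 to 0.0729), and its HSP990 call without R6/2 HSP990 replicate 1 (0.0529). A second, much dimmer probe set of Psmb8 differed by 0.06 ± 0.05 and 0.02 ± 0.05, which did not pass, and with the mean of both probe sets neither call held (adjusted p = 0.0521 and 0.0659). Psmb9 lay at or below the median of all values on the array, a level called dim here, and differed by 0.08 ± 0.09 and 0.11 ± 0.08, which did not pass.

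**Figure D2:**
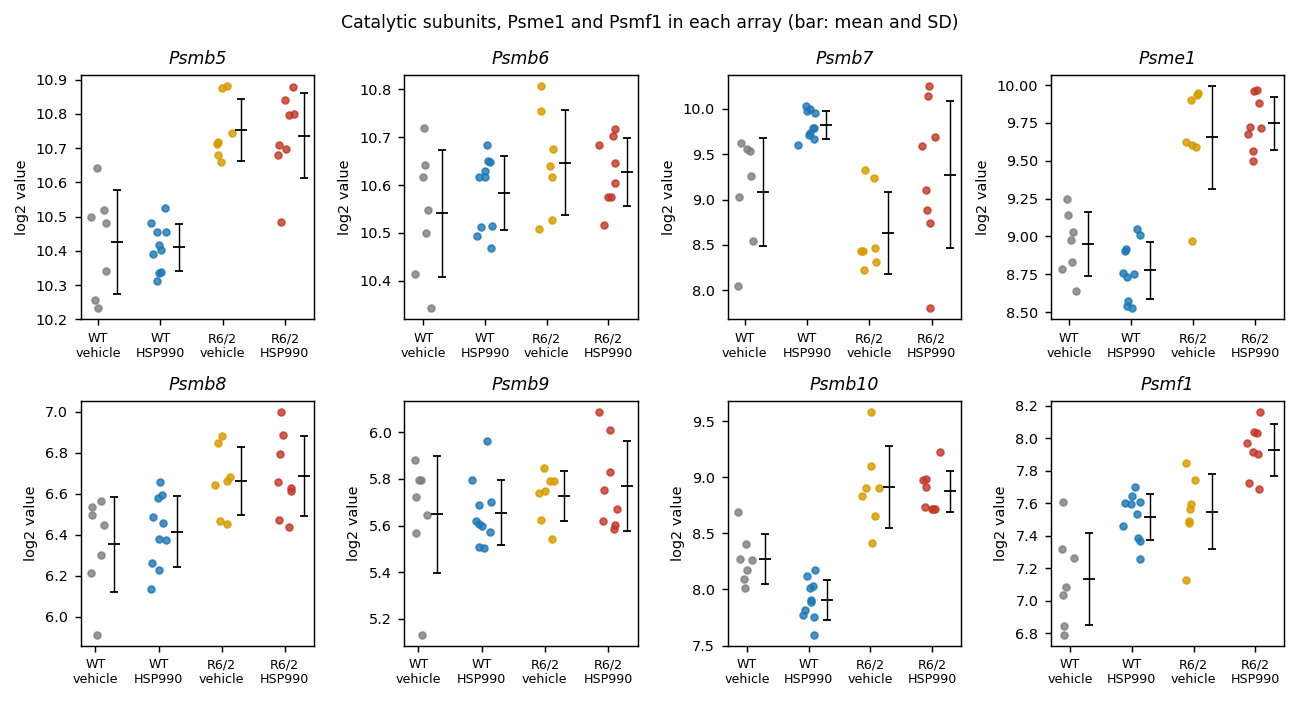
Log2 value (vertical axis, a scale of its own in each panel) of Psmb5, Psmb6, Psmb7, Psme1, Psmb8, Psmb9, Psmb10 and Psmf1 in each array (points) of the 4 groups, with the group mean and SD as a bar beside them. Psme1 and Psmb10 separate R6/2 from wild type most widely, Psmb5 by less, Psmb6 and Psmb9 overlap, and Psmb7 spreads widely in all groups but wild-type HSP990.

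Psma8, a testis form of an alpha subunit, and Psmb11, the thymus form of a catalytic subunit, were dim in every group, with group means between 4.09 and 4.17 and between 3.27 and 3.34. Neither was called in a comparison.

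In the base of the cap, 3 of the 6 ATPase genes were higher in R6/2 on vehicle and 4 under HSP990. Psmc6 had 9.15, 9.26 and 9.62 in wild-type vehicle and 9.51, 9.80 and 9.98 in R6/2 vehicle, overlapping between 9.51 and 9.62. It differed by 0.47 ± 0.08 (adjusted p = 8.53e-05) and, under HSP990, by 0.30 ± 0.07. Psmc3 was higher by 0.24 ± 0.06 and 0.29 ± 0.05, and Psmc4 by 0.27 ± 0.10 and 0.44 ± 0.09, whose vehicle call was lost when any of 10 arrays was left out (adjusted p up to 0.138). Psmc1 and Psmc5 differed by at most 0.07 on either treatment and did not pass.

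Among the base genes without ATPase activity, Psmd1, a scaffold subunit, was higher by 0.31 ± 0.07 and 0.38 ± 0.06 (adjusted p = 0.00178 and 1.22e-05). Psmd2, the other scaffold, passed under HSP990 at 0.25 ± 0.06 and not on vehicle at 0.12 ± 0.06. Psmd4, a receptor for ubiquitin chains, differed by 0.15 ± 0.08 and 0.12 ± 0.07, neither of which passed.

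In the lid, the same 4 of 8 genes were higher on each treatment: Psmd6, Psmd11 and Psmd12, structural subunits, and Psmd14, the deubiquitinase that strips ubiquitin from substrates as they enter. Psmd11 was higher by 0.28 ± 0.08 and 0.40 ± 0.07, and Psmd6 by 0.32 ± 0.07 and 0.25 ± 0.06. The second probe sets of both, also bright, were not called on vehicle, at 0.07 ± 0.11 for Psmd11 and 0.16 ± 0.13 for Psmd6 (adjusted p = 0.707 and 0.449), and were called under HSP990 at 0.40 ± 0.10 and 0.42 ± 0.12. With the mean of its probe sets Psmd11 passed on neither treatment, at 0.09 ± 0.04 and 0.09 ± 0.03 (adjusted p = 0.109 and 0.0567). Psmd14 moved less, by 0.17 ± 0.06 (adjusted p = 0.0315) and 0.24 ± 0.05 (adjusted p = 0.000238), but its HSP990 groups, 11.12 to 11.29 and 11.33 to 11.68, did not overlap. Psmd12 was higher by 0.30 ± 0.10 and 0.32 ± 0.09. On vehicle, the calls of Psmd12 and Psmd14 were lost when any of 10 and of 6 arrays was left out (adjusted p up to 0.0978 and 0.0931). Psmd13 and Psmd7 had standard errors of 0.17 to 0.20 and differences of 0.01 and 0.28 on vehicle and -0.08 and -0.13 under HSP990. Both had their lowest R6/2 HSP990 value, 7.43 and 8.10, in replicate 5, an array of poor RNA. The group medians under HSP990 were 8.92 in R6/2 and 8.79 in wild type for Psmd13, and 9.37 and 9.38 for Psmd7. With 3′ bias as a covariate, Psmd7 was called higher in R6/2 averaged over treatments, at 0.19 ± 0.06 (adjusted p = 0.0179).

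Psmd5, Psmd9 and Psmd10 carry lid symbols but are chaperones that hold ATPases while the base is assembled, and all 3 were higher on both treatments. Psmd10, also known as gankyrin, had 7.81, 8.17 and 8.37 in wild-type vehicle and 8.36, 8.62 and 8.78 in R6/2 vehicle, meeting at the edges. It differed by 0.46 ± 0.07, 1.38-fold (adjusted p = 9.7e-06), and by 0.27 ± 0.06 under HSP990. Psmd9 differed by 0.39 ± 0.09 and 0.25 ± 0.08, and Psmd5 by 0.20 ± 0.07 and 0.35 ± 0.06. The vehicle call of Psmd5 was lost when any of 8 arrays was left out (adjusted p up to 0.0808).

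Of the 4 chaperones of the core, Psmg2 and Psmg3 were higher on both treatments, and Psmg1 under HSP990 at 0.18 ± 0.07, a call lost when any of 8 arrays was left out (adjusted p up to 0.0863). Psmg1 and Psmg2 form a pair that helps to build the alpha ring. Psmg3, which works with Psmg4, had 7.89, 8.22 and 8.35 in wild-type HSP990 and 8.50, 8.67 and 8.73 in R6/2 HSP990, without overlap. It differed by 0.47 ± 0.07 (adjusted p = 1.07e-06) and by 0.27 ± 0.07 on vehicle, while Psmg2 differed by 0.25 ± 0.05 and 0.19 ± 0.05. With the mean of its probe sets Psmg2 passed on neither treatment, at 0.15 ± 0.09 on vehicle and 0.03 ± 0.08 under HSP990 (adjusted p = 0.262 and 0.829). For Psmg3 that mean lost the vehicle call, at 0.10 ± 0.07 (adjusted p = 0.314), and kept the call under HSP990. Psmg4 differed by -0.01 ± 0.09 and -0.05 ± 0.08 and did not pass.

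Psme1, a subunit of the 11S activator that opens the core without ATP and is induced by interferon together with the immunoproteasome, had the largest difference of the family. It read 8.64, 8.98 and 9.25 in wild-type vehicle, 8.97, 9.62 and 9.95 in R6/2 vehicle, 8.53, 8.76 and 9.05 in wild-type HSP990 and 9.50, 9.72 and 9.97 in R6/2 HSP990. Only the lowest R6/2 vehicle array reached into the wild-type range, and the HSP990 groups were apart. The differences were 0.70 ± 0.12, 1.63-fold (adjusted p = 5.5e-05), and 0.97 ± 0.11, 1.96-fold (adjusted p = 1.55e-08). Psme3, which forms the nuclear 11S activator, differed by 0.10 ± 0.08 and 0.17 ± 0.07 and did not pass.

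Psme1 and Psmb10 stood in a tissue where some interferon and antigen genes were called higher and no microglia marker was. Of 14 antigen processing and interferon genes measured, 4 were higher in R6/2 on vehicle and 8 under HSP990, and none was lower. Over all genes, 11.9% and 22.6% were called higher and 9.6% and 11% lower. A link between these genes and Psme1 or Psmb10 was not tested. Those called higher included Ifit1, an interferon effector, at 0.84 ± 0.20 and 1.47 ± 0.18, and Irgm1, an interferon-induced GTPase, at 0.43 ± 0.15 and 0.83 ± 0.14. Among them was also Tapbp, which loads peptides, at 0.14 ± 0.09 (not passing) and 0.44 ± 0.08. Ifit1 is dim. Tap1 and Tap2, the peptide transporter genes that neighbour Psmb8 and Psmb9 on chromosome 17, passed under HSP990 at 0.25 ± 0.08 and 0.29 ± 0.10.

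Of 11 microglia markers, none was higher in R6/2 on either treatment, 3 were lower on vehicle (Aif1, C1qb and C1qc) and 5 under HSP990 (Aif1, C1qa, Cx3cr1, P2ry12 and Trem2). Their mean shift per array was -0.25 to 0.27 in wild-type vehicle and -0.42 to -0.06 in R6/2 vehicle, and -0.12 to 0.18 and -0.70 to -0.06 in the HSP990 groups. Of 7 endothelial markers 0 were higher in R6/2 on either treatment and 1 was lower under HSP990. Of 8 astrocyte markers 1 was lower on vehicle, and 5 were lower and 1 higher under HSP990. Of 7 oligodendrocyte markers 1 was lower on vehicle and 4 under HSP990. Of 6 lymphocyte markers, 4 of which were dim (Cd3g, Cd8a, Ms4a1 and Ptprc), only Cd4 was called, lower on each treatment. Over all genes, 11.9% were called higher and 9.6% lower on vehicle, and 22.6% and 11% under HSP990. None of the 6 choroid plexus markers was called, and their mean shift ran from -2.06 to -0.07 in R6/2 vehicle and from -1.71 to 1.88 in wild-type vehicle. The part of changing cell numbers in the proteasome differences was not tested.

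**Figure D3:**
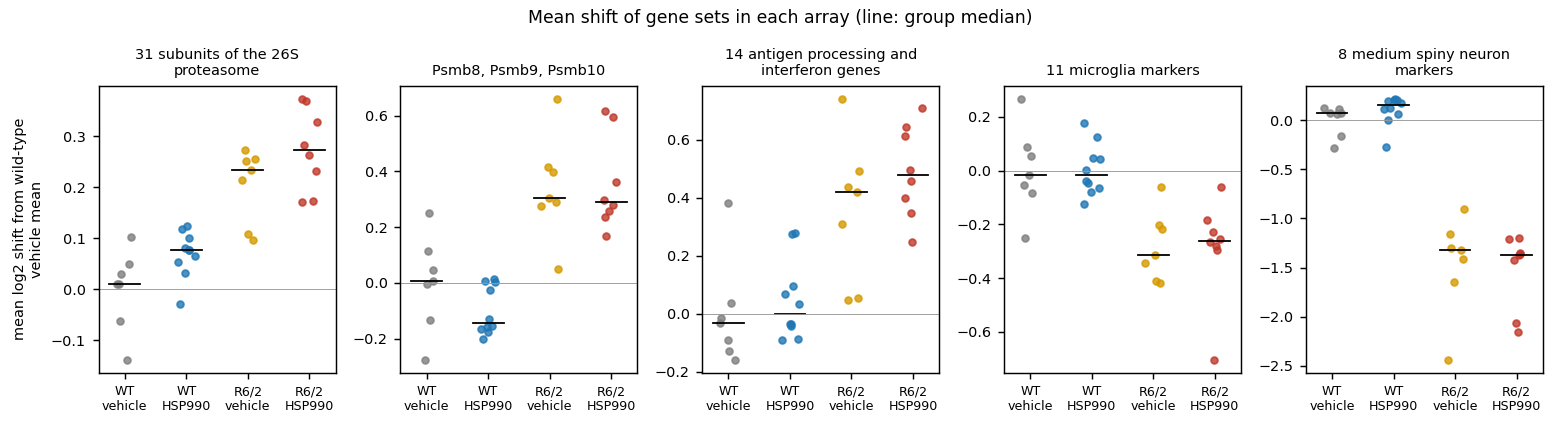
Mean log2 shift from the wild-type vehicle mean (vertical axis, a scale of its own in each panel) of 5 gene sets in each array (points, with the group median as a line). The 31 subunits of the 26S particle, the 3 immunoproteasome genes and the 14 antigen processing and interferon genes lie higher in both R6/2 groups, while the 11 microglia and 8 medium spiny neuron markers lie lower.

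Read from the brightest probe set of each gene, HSP990 moved few proteasome genes. In wild type 2 members rose and 0 fell, where 2.24% of all genes were called higher and 3.57% lower, and the median change was 0.02 against -0.03 over all genes. In R6/2 3 rose and 0 fell, where 2.18% and 0.918% of all genes were called, with a median of 0.05 against 0.02 over all genes. In wild type no member was without overlap between the treatments, where 0.731% of all genes were higher and 0.742% lower without overlap. At an unadjusted p under 0.05 there were 10 members in wild type (20.4%, against 18.5% of all genes) and 7 in R6/2 (14.3%, against 15.8%), near the share of all genes. Averaged over the genotypes, 4 members rose, Psmf1, Psmb7, Psmc2 and Psmc1, and 0 fell, where 3.99% and 3.7% of all genes were called. Psmb7 rose there by 0.69 ± 0.18 (adjusted p = 0.0144), and Psmc1, an ATPase subunit, by 0.11 ± 0.03 (adjusted p = 0.0395), a call lost when any of 15 arrays was left out (up to 0.0731).

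**Figure D4:**
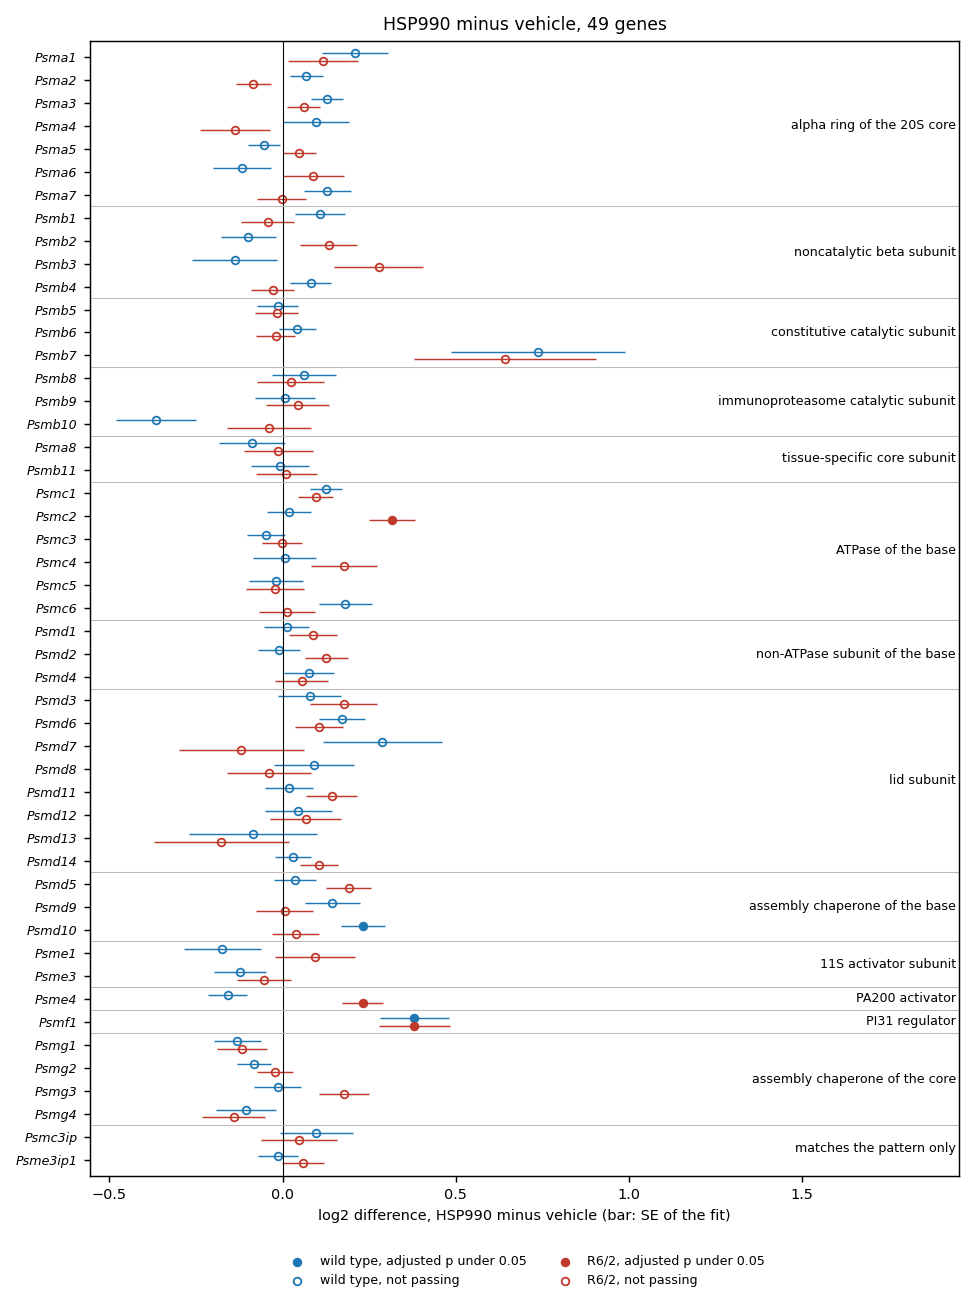
Log2 difference of HSP990 minus vehicle (horizontal axis) for the 49 genes (rows, grouped by role) in wild type (blue) and R6/2 (red), with bars for the standard error of the fit and filled points where the adjusted p is under 0.05. Points scatter around 0, and the filled ones are Psmf1 in both genotypes, Psmd10 in wild type, and Psmc2 and Psme4 in R6/2.

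Psmf1 encodes PI31, a protein that inhibits the core in the test tube and serves as an adaptor for moving proteasomes in axons. It was the 1 member called in both genotypes. Its log2 values were 6.79, 7.08 and 7.61 in wild-type vehicle, 7.25, 7.57 and 7.70 in wild-type HSP990, 7.13, 7.56 and 7.85 in R6/2 vehicle and 7.69, 7.94 and 8.16 in R6/2 HSP990. Untreated wild type was lowest, treated R6/2 highest, and the groups between were alike, with overlap between neighbouring groups. The rise with HSP990 was 0.38 ± 0.10 in wild type and 0.38 ± 0.10 in R6/2 (adjusted p = 0.0155 and 0.0361), and the genotype difference was 0.41 ± 0.11 on vehicle and 0.41 ± 0.09 under HSP990 (adjusted p = 0.00487 and 0.000799).

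The probe sets of Psmf1 did not move alike. The second, nearly as bright, changed with HSP990 by 0.12 ± 0.07 in wild type and 0.02 ± 0.07 in R6/2 and differed between genotypes by 0.10 ± 0.07 and 0.01 ± 0.07, none of which passed. The third rose with HSP990 by 0.51 ± 0.14 in wild type (adjusted p = 0.0234 over all probe sets). The R6/2 call was also lost when any of 9 arrays was left out, with adjusted p from 0.0502 to 0.122 (0.122 without R6/2 vehicle replicate 7), and the wild-type call without wild-type vehicle replicate 6 (0.0517).

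Psmd10 rose with HSP990 in wild type, from 7.81, 8.17 and 8.37 to 8.22, 8.37 and 8.49, with overlapping groups (0.23 ± 0.06, adjusted p = 0.0247). In R6/2, where it was higher on vehicle, the change was 0.04 ± 0.07. The test of the difference between the genotypes in this change gave -0.20 and did not pass. The wild-type call was lost without wild-type vehicle replicate 1 (adjusted p = 0.0705) or replicate 5, an array of poor RNA (0.0788). Psmb10 moved the other way in wild type, -0.37 ± 0.12, with an adjusted p of 0.0543 that missed the threshold. Over 11 alternative settings its adjusted p ran from 0.0193 to 0.199.

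Psmc2, an ATPase subunit, rose with HSP990 in R6/2. It read 10.96, 11.21 and 11.37 in wild-type vehicle, 11.09, 11.22 and 11.43 in wild-type HSP990, 11.11, 11.25 and 11.44 in R6/2 vehicle and 11.38, 11.58 and 11.84 in R6/2 HSP990. The treated R6/2 arrays stood above most arrays of the other groups, which were alike. The rise in R6/2 was 0.32 ± 0.07 (adjusted p = 0.00553) and the change in wild type 0.02 ± 0.06, while the test of the difference between them gave 0.30 ± 0.09 (adjusted p = 0.156). Its second probe set changed by 0.17 ± 0.08 in R6/2 and 0.18 ± 0.08 in wild type, neither of which passed, and the R6/2 call was also lost with the mean of the probe sets (adjusted p = 0.0603) and when only the groups compared were fitted (0.0539).

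Psme4 encodes PA200, an activator that caps the core in the nucleus and is known for its role in sperm and in histone turnover. Its drug response was the 1 among the members that differed between genotypes by the interaction test, where 0.17% of all genes were called higher and 0.077% lower, and 5 members (10.2%) had an unadjusted p under 0.05, against 12.9% of all genes. Psme4 read 9.13, 9.21 and 9.56 in wild-type vehicle, 9.0, 9.05 and 9.28 in wild-type HSP990, 8.88, 9.03 and 9.10 in R6/2 vehicle and 9.16, 9.23 and 9.46 in R6/2 HSP990. On vehicle all R6/2 arrays were below all wild-type arrays, and with HSP990 all R6/2 arrays were above all R6/2 vehicle arrays, an absence of overlap seen in 0.5% of all genes.

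The R6/2 difference in Psme4 was -0.24 ± 0.06 on vehicle (adjusted p = 0.00528) and 0.15 ± 0.05 under HSP990 (adjusted p = 0.0288). HSP990 changed it by 0.23 ± 0.06 in R6/2 (adjusted p = 0.0258) and -0.16 ± 0.06 in wild type (adjusted p = 0.1), which makes an interaction of 0.39 ± 0.08 (adjusted p = 0.0257). Its second probe set gave -0.27 ± 0.09, 0.10 ± 0.08, 0.27 ± 0.09 and -0.10 ± 0.08 for those comparisons and 0.37 ± 0.12 for the interaction (adjusted p = 0.18). The other 4 of its 6 probe sets were less bright, and their interactions ran from -0.20 to 0.15, none of which passed. With the mean of the 6, the R6/2 difference was -0.15 ± 0.08 on vehicle and 0.0024 ± 0.07 under HSP990, the change with HSP990 was 0.21 ± 0.07 in R6/2 and 0.06 ± 0.07 in wild type, and the interaction was 0.15 ± 0.10 (adjusted p = 0.183, 0.985, 0.118, 0.698 and 0.548). The interaction call was lost without R6/2 vehicle replicate 3 (adjusted p = 0.0523), without wild-type vehicle replicate 1 (0.0514), without both arrays of poor RNA (0.0537) and with 3′ bias as a covariate (0.162), and over 10 alternative settings the adjusted p ran from 0.0151 to 0.548. The rise in R6/2 was lost without R6/2 HSP990 replicate 5 (0.061), R6/2 vehicle replicate 3 (0.0646) or replicate 4 (0.0579). The genotype difference under HSP990 was lost without R6/2 HSP990 replicate 5 or wild-type HSP990 replicate 9 or 10 (up to 0.0831). RNA quality also varied by group. The median 3′ minus 5′ Gapdh signal was 0.77 in wild-type vehicle and 0.79 in R6/2 HSP990, against 0.42 in wild-type HSP990 and 0.47 in R6/2 vehicle. Psme4 was also higher in the former groups than in the latter. The part of RNA quality in this was not tested beyond the covariate.

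**Figure D5:**
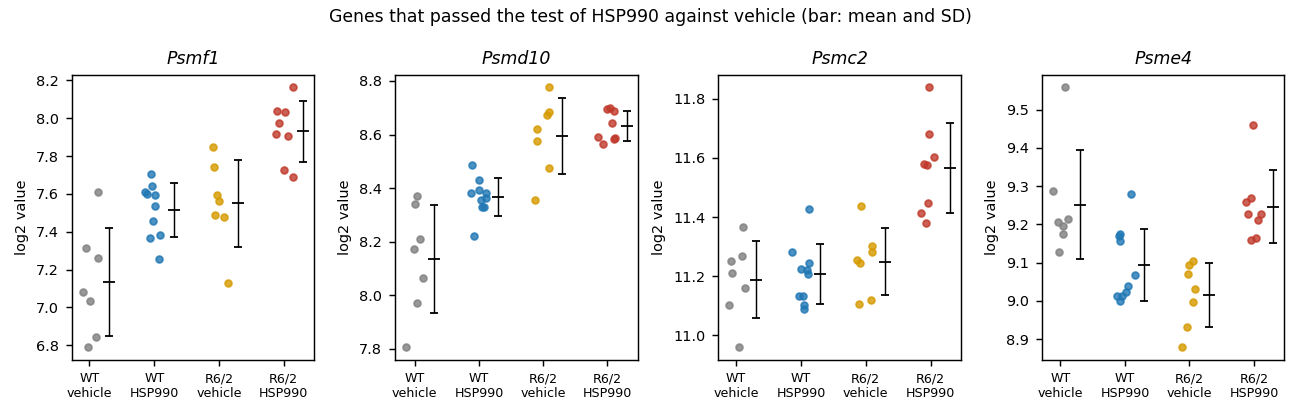
Log2 value (vertical axis, a scale of its own in each panel) of Psmf1, Psmd10, Psmc2 and Psme4 in each array (points) of the 4 groups, with the group mean and SD as a bar. Psmf1 steps up with treatment in both genotypes, Psmd10 in wild type, Psmc2 stands high in treated R6/2, and Psme4 is low in R6/2 vehicle and back in the wild-type vehicle range in treated R6/2.

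Leaving out both arrays of poor RNA changed 16 calls of members over the 7 comparisons, 11 lost and 5 gained. On vehicle the R6/2 calls of Psmc4 and Psmd12 were lost (adjusted p = 0.0653 and 0.0728). Under HSP990 those of Psme4 and Psmg1 were lost (0.0851 and 0.0896), and Psma7 and Psmd3 were called higher (0.0239 and 0.00896). Averaged over treatments, Psmb7 and Psmd4 were lost (0.0764 and 0.0714), and Psmd3 and Psmc3ip were called higher (0.0241 and 0.0482). Of the changes with HSP990, those of Psmf1 and Psme4 in R6/2 (0.0663 and 0.0616), Psmd10 in wild type (0.0775) and Psmc1 on average (0.0791) were lost, and Psmb10 was called lower in wild type (0.0412). The interaction of Psme4, given above, makes up the 16.

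The choice of probe set mattered for several members. The 49 genes had 103 probe sets, and 27 genes had more than 1. When every probe set on the array was tested alone, 31 of the 103 were called higher in R6/2 on vehicle and 48 under HSP990, where 8.06% and 15.8% of all probe sets were. Among the 75 that were brighter than the median of all values, it was 31 and 44, or 41.3% and 58.7%, against 13.8% and 25% of all probe sets above that level. For HSP990 averaged over the genotypes, 13 of the 103 were higher (12.6%), where 3.84% of all probe sets were. Among the 75 brighter ones it was 11 (14.7%), against 5.91% of all probe sets above that level.

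Some of those rises with HSP990 came from less bright probe sets of genes whose brightest did not pass. The second probe set rose by 0.41 ± 0.06 for Psma1, 0.37 ± 0.06 for Psmc6, 0.37 ± 0.08 for Psmd11 and 0.23 ± 0.05 for Psmd7 (adjusted p = 1.24e-05, 5.37e-05, 0.00148 and 0.00368 over all probe sets). The brightest probe sets of the same genes gave 0.16 ± 0.07, 0.10 ± 0.06, 0.08 ± 0.05 and 0.08 ± 0.12. These 4 genes were picked after their values were seen. Where the second probe set replaced the first, 17 members were higher in R6/2 on vehicle in place of 26, and 26 under HSP990 in place of 31. The calls lost on vehicle were those of Psma3, Psmb1, Psmb4, Psmb8, Psmc6, Psmd6, Psmd9, Psmd11, Psmf1, Psmg2 and Psmg3 (adjusted p from 0.115 to 0.928), and under HSP990 those of Psmb8, Psmd2, Psmd9, Psme4, Psmf1, Psmg2 and Psmg3 (from 0.245 to 0.949). On vehicle the sign turned for Psma3 (-0.03), Psmd9 (-0.18) and Psmg3 (-0.07), all from probe sets much less bright than the first. Psme1, Psmb10, Psmb5, Psma2, Psmd1 and Psmd10 have a single probe set, so no such check was possible for them.

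Of the 49 genes, 41 had a promoter window in the RefSeq table (GRCm38.p6), taken from 250 bases before to 50 bases after the start, in 44 windows. The letters CCGGAAG, a core site of ETS factors, stood on either strand in 16 of the 41 genes (39.0%), against 9.93% of all genes in the table and 15.0% of the genes on the array. The stretches below show this site, in capitals, in members described above: Psmc6, Psmd6, Psmd11 and Psmd12, higher in R6/2 on both treatments, and Psmc2 and Psme4, which rose with HSP990 in R6/2. Each runs 5′ to 3′ along the gene and ends before the start site.
Psmc6: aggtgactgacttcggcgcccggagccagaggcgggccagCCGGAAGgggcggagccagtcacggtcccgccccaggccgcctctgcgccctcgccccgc
Psmd6: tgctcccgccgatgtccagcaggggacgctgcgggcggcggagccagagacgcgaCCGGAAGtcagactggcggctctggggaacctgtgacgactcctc
Psmd11: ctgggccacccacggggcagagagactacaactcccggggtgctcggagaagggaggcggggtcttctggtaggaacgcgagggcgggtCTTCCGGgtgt
Psmd12: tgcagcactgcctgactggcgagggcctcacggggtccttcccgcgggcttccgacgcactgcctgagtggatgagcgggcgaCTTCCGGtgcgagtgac
Psmc2: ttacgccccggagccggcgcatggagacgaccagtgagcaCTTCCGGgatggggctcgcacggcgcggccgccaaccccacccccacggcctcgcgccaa
Psme4: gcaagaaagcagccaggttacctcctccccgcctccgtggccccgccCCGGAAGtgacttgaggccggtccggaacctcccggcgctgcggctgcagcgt

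In order, they lie at chr14:45329684-45329783, plus strand, chr14:14120946-14121045, minus strand, chr11:80428515-80428614, plus strand, chr11:107479428-107479527, plus strand, chr5:21785151-21785250, plus strand and chr11:30771675-30771774, plus strand. In Psmd11, Psmd12 and Psmc2 the site reads CTTCCGG along the gene, so it lies on the opposite strand. The 16 members with the site had a median R6/2 difference of 0.14 on vehicle, with 5 called higher, and the 25 without it a median of 0.31, with 18 called higher. Under HSP990 the medians were 0.23 and 0.26, with 11 and 17 called higher. These are descriptions of letters in a window, with no test.

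The other motifs were sought on both strands. The antioxidant response element, the kind of site that Nfe2l1 binds, was in 0 of 41 genes in its full form TGACTCAGC (0.503% of all genes) and in 6 in its loose form TGACNNNGC, which includes the full one (14.6%, against 14% of all genes). Psmb5, the constitutive catalytic subunit higher on both treatments, was among the 6, shown with the match in capitals.
Psmb5: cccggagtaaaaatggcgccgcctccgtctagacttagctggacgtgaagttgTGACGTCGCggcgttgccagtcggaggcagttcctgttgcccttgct

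That stretch lies at chr14:54617996-54618095, minus strand. The heat shock element, sought as 3 alternating repeats of GAA and TTC with a gap of 2 bases between them, was in 0 of 41 genes, against 0.662% of all genes, and the window of Psmf1 was among those searched. The interferon response element, sought as GAAA repeated after a gap of 2 bases, was in 5 genes (12.2%, against 3.99%). They were Psme1, Psmb3, Psmd4, Psmd9 and Psmg4, and the windows of Psmb8 and Psmb9 lacked it. Members with the element had a median R6/2 difference of 0.15 on vehicle and 0.25 under HSP990, and those without it 0.26 and 0.25. The STAT site TTCNNNGAA was in 3 (7.32%, against 9.55%), Psmb8, Psmd2 and Psmg1. The CCAAT box was in 16 (39.0%, against 41.1%), and the palindromic site of nuclear respiratory factor in Psma2 and Psmg1 (4.88%, against 1.07%). The 49 genes lie on 16 chromosomes, with 9 on chromosome 11.

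Partners of the proteasome outside the symbol rule lay slightly higher in R6/2 on vehicle, but were rarely called on either treatment. Of 10 genes of proteasome-bound proteins measured (Adrm1 and Paaf1 were not analysed here), 0 were called between genotypes on vehicle, although all 10 differences were above 0, and 1 was higher in R6/2 under HSP990, Txnl1, a thioredoxin-like partner of the cap, at 0.38 ± 0.07, where 11.9% and 22.6% of all genes were called higher. Under HSP990, 8 of the 10 differences were above 0 and 2 below, with a median of 0.07 against 0.04 over all genes. Averaged over both treatments 4 of the 10 were called higher, Uchl5, Txnl1, Pomp and Usp14, where 24.3% of all genes were, and all 10 differences were above 0. On the separate treatments Pomp, the maturation factor of the core, differed by 0.21 ± 0.08 and 0.10 ± 0.07, and the deubiquitinase Usp14 by 0.15 ± 0.08 and 0.12 ± 0.07, none of which passed. With HSP990, Zfand2a, an arsenite-inducible adaptor of the proteasome, rose in wild type by 0.63 ± 0.13 (adjusted p = 0.00131) and changed by 0.35 ± 0.13 in R6/2.

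Nfe2l1 itself, which drives proteasome genes after the particle is blocked, differed in R6/2 by -0.13 ± 0.21 and -0.43 ± 0.18, and HSP990 changed it by -0.05 ± 0.19 in wild type and -0.34 ± 0.20 in R6/2, none of which passed. Of the 10 genes measured from its list of regulators and relatives, 1 was higher in R6/2 on vehicle and 4 under HSP990, where 11.9% and 22.6% of all genes were. Ngly1, the enzyme that removes sugars from the Nfe2l1 protein, was higher by 0.37 ± 0.08 and 0.43 ± 0.07 (adjusted p = 0.000773 and 7.38e-06), and its relative Nfe2l3 by 0.83 ± 0.16 under HSP990. Bach1 and Keap1, negative regulators of the antioxidant response, were higher under HSP990 by 0.33 ± 0.09 and 0.21 ± 0.07. Syvn1, the ubiquitin ligase that keeps Nfe2l1 low, rose with HSP990 in R6/2 by 0.29 ± 0.07.

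Carriers that bring substrate to the proteasome included genes that rose with HSP990. Of 4 shuttle factors measured, which bind ubiquitin chains and the cap, Ubqln1 and Rad23b rose in wild type by 0.44 ± 0.07 and 0.44 ± 0.13 (adjusted p = 0.00019 and 0.0438), and Rad23b in R6/2 by 0.54 ± 0.14. Over all genes, 2.24% were called higher with HSP990 in wild type and 2.18% in R6/2. Ubqln4 was lower in R6/2 on vehicle by -0.44 ± 0.11, where 9.6% of all genes were called lower. Of 8 genes of the unfoldase p97 and its cofactors, 4 were higher in R6/2 on vehicle and 3 under HSP990. Over all genes, 11.9% and 22.6% were called higher on those treatments. The called genes were Vcp, p97 itself, at 0.30 ± 0.10 and 0.28 ± 0.09, and Nploc4 at 0.17 ± 0.06 and 0.32 ± 0.05. On vehicle they were also Ubxn4 at 0.31 ± 0.10 and Nsfl1c at 0.40 ± 0.13, and under HSP990 Faf1 at 0.56 ± 0.09. With HSP990, Ubxn4 rose in wild type by 0.42 ± 0.09 and Nploc4 in R6/2 by 0.21 ± 0.06. The ubiquitin-activating gene Uba6 was not called in any comparison.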

How the data were processed

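Striatal RNA was measured on 32 Affymetrix arrays with a 3′ in vitro transcription kit, per the labels' protocols. The authors deposited normalized values, log2 by their range (2.15 to 14.7), with array medians of 5.73 to 5.78. How they normalized them was not stated in the sources used. The number of arrays limits the precision.

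The matrix held 45101 probe sets, 64 of them controls, and 34945 had a unique symbol in the platform list. Each gene was read from its brightest such probe set, giving 18193 genes. Genes at or below the median of all values (5.76) are called dim, and none was filtered out. Means of the 4 groups were fitted with limma 3.58.1 in R 4.3.3 (data.table, version 1.17.8), with moderated two-sided tests, adjusted by Benjamini and Hochberg over all genes at 0.05. HSP990 was set against vehicle and R6/2 against wild type, each at both levels of the other factor and on average, and their interaction was tested. The fit was tested on simulated data. The labels give no animal identifiers, so p-values measure the spread between these arrays.

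Members, gene lists and markers were chosen with earlier results of these data known. Named were members called in any comparison, those with the smallest p or extreme change in a role, the catalytic, activator and assembly genes throughout, and up to 4 called genes per list. Alternatives were quantile normalization, centring, dim genes left out, other probe sets, only the groups compared, other variance models, array weights, a replicate block, 3′ bias as a covariate, the 2 arrays of poor RNA (Gapdh difference over 2) left out, and each array left out. Promoter sequences came from RefSeq (GRCm38.p6).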

Additional observations from a re-analysis of the deposited data

Results flagged for a closer look

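Of the 196 sets of values (each gene in each group) examined, 17 held an array whose gap to the nearest other was large for the group's range, where chance gives about 1 in 20, and 3 of the 17 came from the 2 arrays of poor RNA. R6/2 vehicle replicate 1 was the low array for Psma1 (9.70), Psmd12 (8.91), Psmd5 (8.15) and Psmd8 (9.03). Its Gapdh difference of 1.46, under the cut of 2, was the highest of its group, whose median was 0.47. R6/2 vehicle replicate 7 was low for Psme1 (8.97), Psmd1 (10.4) and Psmg3 (8.17). R6/2 HSP990 replicate 4, with a Gapdh difference of 1.38 against a group median of 0.79, was low for Psmb1 (10.5) and Psmc5 (10.4). R6/2 HSP990 replicate 5, an array of poor RNA, was low for Psmd3 (9.35) and high for Psmd14 (11.7) and Psme4 (9.46). Wild-type vehicle replicate 4 was low for the dim gene Psmb9 (5.13) and high for Psme4 (9.56). The rest were Psma7 in wild-type HSP990 replicate 5 (10.2, low), Psmd2 in wild-type HSP990 replicate 2 (10.5, high) and the dim gene Psmb11 in R6/2 HSP990 replicate 1 (2.91, low). Wild-type HSP990 replicate 5 had the highest Gapdh difference of its group, 1.21 against a median of 0.42.

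The response of Psme4 to HSP990 passed the test of a difference between the genotypes on its brightest probe set, with an interaction of 0.39 log2 units (adjusted p = 0.0257 by limma). The call was lost under 5 of 10 alternative settings, with values down to 0.15 and adjusted p up to 0.548, and without either of 2 single arrays.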

How the results depend on the processing

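Each comparison was recomputed under 11 kinds of alternative. Centring and the trended variance changed no call of a member. For HSP990 in wild type (2 members higher, 0 lower), the counts were 5 and 1 with the mean of the probe sets, 4 and 1 with the second brightest probe set, 6 and 2 with array weights, and 1 and 1 without both arrays of poor RNA, and 1 was lower with quantile normalization, without dim genes and with only the groups compared. For HSP990 in R6/2 (3 higher), 1 was higher with the mean of the probe sets, with the 3′ covariate and without both arrays, and 0 with only the groups compared. With the second probe set the count stayed at 3, but Psmc2, Psme4 and Psmf1 were lost and Psma1, Psmc6 and Psmd11 were gained. For R6/2 on vehicle, 17 were higher in place of 26 with the second probe set, and 0 lower in place of 1 with the mean of the probe sets. The interaction call was 0 under the mean of the probe sets, the second probe set, the 3′ covariate and without both arrays. For HSP990 averaged (4 higher, 0 lower), 2 were higher with quantile normalization, and 7 higher and 1 lower with array weights. For R6/2 averaged, 0 was lower without both arrays. The averaged comparisons and the interaction use all groups, so fitting only the groups compared gives nothing separate there.

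With the second probe set the sign turned for Psma3 (-0.034), Psmd9 (-0.18) and Psmg3 (-0.066) in R6/2 on vehicle, Psmg2 (-0.16) in R6/2 under HSP990, Psmd9 (-0.078), Psmd2 (-0.00058) and Psmd4 (-0.00047) in R6/2 averaged, Psmb1 (-0.24) for HSP990 in wild type, and Psmc1 (-0.031) for HSP990 averaged. The causes were not tested.

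Leaving out each array in turn gave 1 to 3 higher and 0 to 1 lower for HSP990 in wild type, 1 to 4 higher in R6/2, 21 to 26 higher and 1 to 1 lower for R6/2 on vehicle, 29 to 32 and 0 to 1 under HSP990, 0 to 1 for the interaction, 3 to 5 higher for HSP990 averaged, and 33 to 36 higher and 0 to 1 lower for R6/2 averaged.

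The replicate numbers gave little sign of pairing the arrays. The median correlation of deviations was 0.07 for 43 same-numbered pairs (-0.29 to 0.38) and -0.02 for the others. Correlations over all genes cannot exclude an effect of array order or batch on single genes. With the replicate block the interaction count was 0 and 1 member was lower in R6/2 under HSP990. That member was Psmb7, at -0.58 ± 0.22 (adjusted p = 0.0457). Psmb7 also rose with HSP990 in wild type under the block, by 0.88 ± 0.23 (adjusted p = 0.0306). The block lost 9 calls of members and gained 2, both of Psmb7.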
